A study of Mus musculus with 4 samples.

Results

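The glutamate and GABA receptor genes examined here were the rows of the count table whose symbols follow the naming of AMPA (Gria), kainate (Grik), NMDA (Grin), delta (Grid) and metabotropic glutamate (Grm) receptors, GABA-A subunits (Gabr) and GABA-B subunits (Gabbr). There were 48 such genes of 53465 in the table. The rule used symbols only and no measured value, but it was chosen with earlier results of these data known. The libraries were made from mRNA of polysome fractions (PS-RRA-mRNA-Seq) in mouse striatal cell lines of C57/BL6 strain. The fractions were collected after 2 min of harringtonine, which stops new initiation while elongating ribosomes run off. At that time the paper still found polysomes, with a higher profile in HD-homo than in control. Of the 4 libraries, 2 came from HD-homo cells (STHdhQ111/Q111), which carry a knock-in mutant Htt exon 1 of 111 glutamine repeats, and the other two from control cells (STHdhQ7/Q7) with a knock-in wild-type exon 1 of 7 repeats. All 4 cultures received harringtonine and then cycloheximide. Each group is a single immortalized line with 2 libraries, so the repeat and other differences between the lines cannot be told apart, and the p-values measure only the spread between libraries of a line. Lower mRNA content and weaker polysome association cannot be told apart either, nor can fewer expressing cells and less RNA per cell.

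Ionotropic glutamate receptors are tetrameric cation channels that open when glutamate binds and carry most fast excitation in the brain, and metabotropic glutamate receptors act through G proteins. GABA-A receptors are pentameric chloride channels of fast inhibition, and GABA-B receptors are G protein-coupled heterodimers. Striatal projection neurons receive dense glutamatergic input from cortex and thalamus, use GABA as their own transmitter and normally carry many of these subunits. One gene taken by the naming, Grina, encodes no receptor subunit: it was named for an NMDA receptor-associated protein and belongs to the TMBIM family of ER and Golgi membrane proteins.

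Library totals ran from 12372090 to 14074182 counts in HD-homo and from 14122706 to 15472808 in control. Several markers of neurons were undetected in these cells. Of 15 pan-neuronal markers, Dcx, Rbfox3, Snap25 and Syt1 were at 0 in all libraries, and the list summed to 69.3 and 87.0 CPM (counts made relative to library totals that were corrected by TMM, a trimmed mean of M-values) in HD-homo and to 136.2 and 204.9 CPM in control. Of 16 markers of striatal projection neurons, Adcy5, Drd1, Drd2 and Pdyn were among those at 0, and the list summed to 183.4 and 145.4 CPM in HD-homo and to 106.5 and 110.1 CPM in control. The 12 mesenchymal markers summed to 7829 and 6826 CPM in HD-homo and to 5289 and 7737 CPM in control. The 9 neural progenitor markers summed to 3036 and 3753 CPM in HD-homo and to 4854 and 6364 CPM in control. Of the tested markers, 3 of 5 pan-neuronal and 4 of 6 neural progenitor genes were lower in HD-homo, while 2 of 3 oligodendrocyte lineage and 1 of 3 astrocyte genes were higher. Of 7 tested striatal projection neuron markers 2 were higher and 3 lower, of 9 mesenchymal markers 4 were higher and 1 lower, of 2 microglia markers 1 was higher, and of 1 interneuron marker 0 were called. Undetected in all libraries were 3 of 8 oligodendrocyte lineage, 3 of 7 microglia, 4 of 9 interneuron and 2 of 9 neural progenitor markers. The same held for 0 of 8 astrocyte and 0 of 12 mesenchymal markers. Over all 12961 tested genes, 10.4% were higher and 10.9% lower by the same edgeR call. The part of any of these cell type differences in the receptor results was not tested.

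Most receptor genes gave no or almost no reads in either line. Of the 48 members, 20 had 0 counts in all 4 libraries, 10 had 1 count in all, 10 had 2 to 9 and 8 had 10 or more. Of all 53465 genes of the table, coding or not, 31618 had 0 counts in all 4 libraries and 15136 had 10 or more. Only 5 of 48 (10.42%) had enough counts to be tested, against 11701 of 21865 protein-coding genes of the table (53.51%). A count of 0 in both libraries of a group allows up to 3 counts, which is 0.113 CPM in HD-homo and 0.102 CPM in control, a limit that covers counting error only. The 47 receptor subunits without Grina together held 706 counts in HD-homo and 3295 in control. Their summed level was 27.4 and 25.8 CPM in the HD-homo libraries and 121.6 and 103.3 CPM in the control libraries, so the groups did not overlap. Grik5 alone made up 50.5% of that sum in HD-homo and 81.1% in control. Gabbr1 made up 26.04% in HD-homo and 12.3% in control, and Grin2d 16.1% in HD-homo and 3.42% in control.

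**Figure D1:**
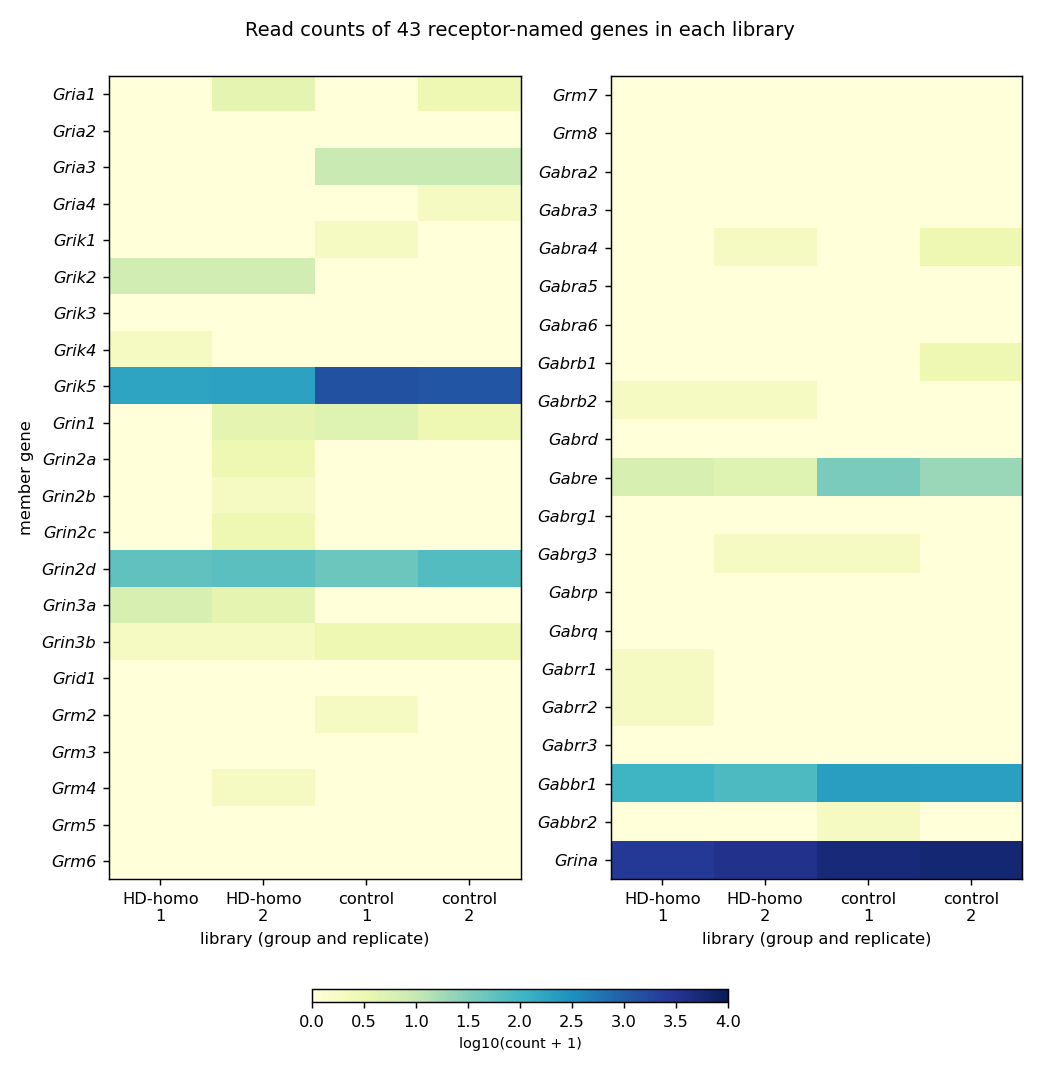
Counts of 43 of the member genes (rows, grouped by receptor class, AMPA genes at the top left and Grina at the bottom right) in each of the 4 libraries (columns), coloured by log10(count + 1). In every column Grina is the darkest, followed by Grik5, Gabbr1 and Grin2d in that order, while 17 of the genes drawn are at 0 throughout.

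By class, the kainate receptor genes summed to 13.9 ± 0.0174 CPM in HD-homo and 91.2 ± 12.3 CPM in control (SD, n = 2 libraries each, here and below), the 2 GABA-B genes to 6.93 ± 1.75 CPM in HD-homo and 13.9 ± 1.16 CPM in control, and the 7 NMDA receptor genes to 4.96 ± 0.417 CPM in HD-homo and 4.19 ± 0.935 CPM in control. The 19 GABA-A genes summed to 0.639 ± 0.0247 CPM in HD-homo and 2.46 ± 0.514 CPM in control. The 4 AMPA genes reached 0.109 ± 0.155 CPM in HD-homo and 0.643 ± 0.111 CPM in control, and the 8 metabotropic genes held 1 count in each group. NMDA genes were thus the class whose groups overlapped among those with more than a few counts.

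Promoters are printed here for the 4 receptor subunit genes that could be tested, 3 of which were lower in HD-homo and 1 of which was not called. RefSeq promoters (GRCm38.p6, 250 bases before to 50 after an annotated start, on the strand of the gene) were matched by symbol for 32 of the 48 members. Capitals mark the GC box, GGGCGG on either strand, which the factor Sp1 is known to bind. Grik5 lies at chr7:25072320-25072619 on the minus strand, Gabbr1 at chr17:37045716-37046015 on the plus strand, Gabre at chrX:72274672-72274971 on the minus strand and Grin2d at chr7:45866632-45866931 on the minus strand.
Grik5: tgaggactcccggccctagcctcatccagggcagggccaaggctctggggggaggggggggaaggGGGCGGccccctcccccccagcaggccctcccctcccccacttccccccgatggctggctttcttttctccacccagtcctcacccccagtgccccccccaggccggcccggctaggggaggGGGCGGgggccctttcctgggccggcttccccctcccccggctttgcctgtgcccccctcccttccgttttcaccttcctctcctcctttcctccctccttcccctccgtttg
Gabbr1: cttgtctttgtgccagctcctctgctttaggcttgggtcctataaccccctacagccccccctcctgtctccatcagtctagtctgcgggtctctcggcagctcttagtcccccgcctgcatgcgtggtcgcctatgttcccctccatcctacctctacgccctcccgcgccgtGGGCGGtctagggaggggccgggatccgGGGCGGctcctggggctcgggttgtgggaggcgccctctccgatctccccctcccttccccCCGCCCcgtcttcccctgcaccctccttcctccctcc
Gabre: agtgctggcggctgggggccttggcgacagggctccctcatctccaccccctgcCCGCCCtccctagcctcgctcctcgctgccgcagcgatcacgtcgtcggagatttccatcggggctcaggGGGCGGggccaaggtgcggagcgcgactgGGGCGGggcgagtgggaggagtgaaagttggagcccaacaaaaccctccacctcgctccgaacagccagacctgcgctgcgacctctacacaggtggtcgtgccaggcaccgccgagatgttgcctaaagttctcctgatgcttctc
Grin2d: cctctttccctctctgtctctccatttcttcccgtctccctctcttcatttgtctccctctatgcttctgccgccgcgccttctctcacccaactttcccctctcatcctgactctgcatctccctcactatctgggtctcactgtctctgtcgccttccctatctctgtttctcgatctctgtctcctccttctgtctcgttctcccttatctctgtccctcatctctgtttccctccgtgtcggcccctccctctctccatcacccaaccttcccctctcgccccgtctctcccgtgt
The Grik5 window held 2 GC boxes, the Gabbr1 and Gabre windows 3 each and the Grin2d window 0. The Grin2d window lies at a start inside the gene, which reaches to 45878378 on the minus strand. The windows of Grik5, Gabbr1 and Gabre hold the outer 5' end of their genes, so Grin2d is not a like comparison. Over the 32 members 18 (56.25%) had a GC box, against 35.91% of 27025 promoters of the same length. Genes with 0 counts in all libraries were among them, such as Grik3 with 7 GC boxes and Gabra2 with 2. TATAAA was found in 3 members (14.16% of all promoters), the cAMP response element half-site TGACG in 4 (21.02%) and the E-box CACGTG in 1 (7.24%). Of the half-sites of the RE1 element that the repressor REST is known to bind, CAGCACC was found in 2 members (7.09% of all promoters) and GGACAG in 12 (22.09%), among them Grin2d and Gria2. All motifs were searched on both strands, and a match of letters is a description of the window only. CpG dinucleotides numbered 10 in Grik5, 12 in Grin2d, 18 in Gabbr1 and 24 in Gabre, with a median of 15 over these 4. The median was 17.5 over the 18 matched members with 1 count or more, 10.5 over the 14 at 0 counts and 7.0 over all promoters.

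Among the members with enough counts, 4 of 5 were lower in HD-homo polysomes (Grik5, Gabre, Gabbr1 and Grina) and 1 (Grin2d) was not called. Of all 12961 tested genes 10.9% were lower and 10.4% higher (edgeR, quasi-likelihood F-test, Benjamini-Hochberg adjusted p under 0.05). Gabre had over 10 counts only in the control libraries and could pass the filter only through them. With 10 counts required in every library, which removes Gabre, 3 members (Grik5, Gabbr1 and Grina) were lower and Grin2d was not called. No member was higher by edgeR, DESeq2 or limma-voom, and 0 were higher at an unadjusted p under 0.05 in edgeR. The median log2 fold change of the 5 was -1.0, against 0.0017 over all tested genes. Without control replicate 1, 2 members (Grik5 and Gabbr1) were lower.

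Among the 5 tested members the largest change was in Grik5, which encodes the kainate receptor subunit GluK5, a high-affinity subunit known to form channels only together with GluK1, GluK2 or GluK3. Grik5 was at 13.4 and 13.5 CPM in the HD-homo libraries (172 and 185 counts), against 99.8 and 82.5 CPM in the control libraries (1413 and 1258 counts). The lowest control library was far above the highest HD-homo library. Its level was 6.78-fold lower in HD-homo (log2 fold change -2.76, SE 0.23, edgeR adjusted p = 1.38e-06), and the log2 fold change ran from -2.90 to -2.62 over all alternatives. The gene spans 62.5 kb of chromosome 7 of GRCm38, from 25009849 to 25072346 on the minus strand, and no other gene of the table overlaps it in the annotation.

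The partners that GluK5 needs were nearly undetected. Grik1 had 0 counts in HD-homo and 1 in control, and Grik3 had 0 in every library. Grik2, which encodes GluK2, had 6 and 6 counts in HD-homo and 0 and 0 in control. Against a floor of 3 counts over the control group, its level in HD-homo was higher by 4.42-fold or more. Such bounds, here and below, take the counts of the higher group as they stand. They leave out the counting error of that group, so they are not confidence limits. With control replicate 1 left out the bound was 2.29-fold and with control replicate 2 left out 2.13-fold, since the floor then covers 1 library. Grik4, the other high-affinity kainate subunit gene, had 1 count, in HD-homo. Per length of annotated exon, Grik5 was at 2.60 CPM per kb in HD-homo and 17.6 CPM per kb in control, and Grik2 at 0.0341 CPM per kb in HD-homo and 0 in control. The levels of Grik5 were the higher ones in both lines. Grik2 had too few counts to be tested with the filter on low counts, and its call without that filter (adjusted p = 0.00897, edgeR) was not made by DESeq2 (adjusted p = 0.0981).

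**Figure D2:**
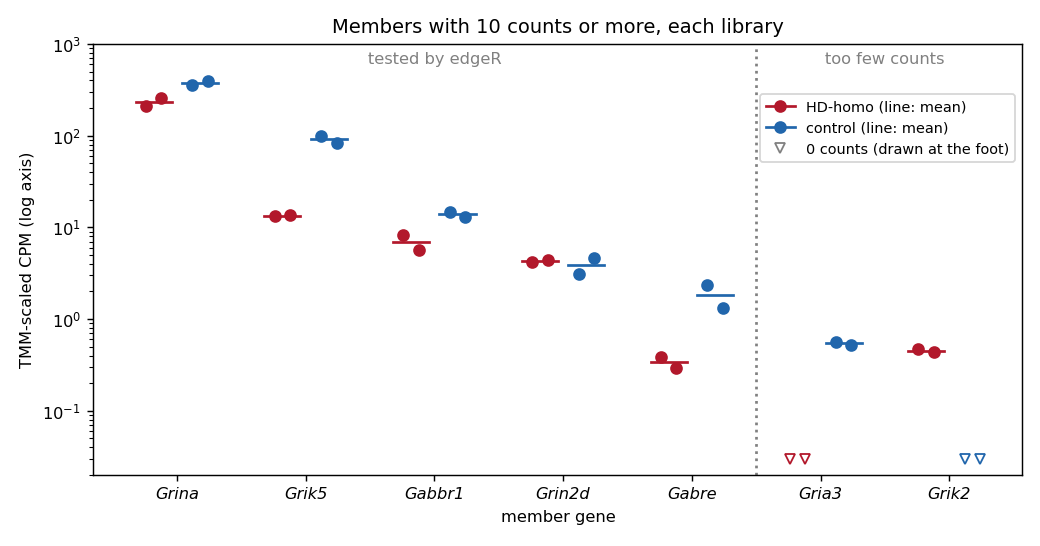
TMM-scaled CPM (log axis) of 7 members with 10 counts or more, with each library as a point, HD-homo in red and control in blue, lines at group means, and open triangles at the foot for 0 counts. Grik5 stands at 13.4 and 13.5 CPM in HD-homo, below 99.8 and 82.5 CPM in control, while the points of Grin2d overlap between the groups.

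Gabbr1, the GABA-binding subunit of the GABA-B receptor, was lower in HD-homo. It was at 8.16 and 5.69 CPM in the HD-homo libraries, against 14.6 and 13.1 CPM in the control libraries. The groups did not overlap, and the gap was larger than the distance between the replicates of either group. This was a log2 fold change of -1.0 with SE 0.28 (edgeR adjusted p = 0.0184). The call was lost once HD-homo replicate 2 was left out (-0.76, adjusted p = 0.138). Gabbr1 lies on chromosome 17 from 37045966 to 37075067 and spans 29.1 kb. Gabbr2, which encodes the subunit that couples the heterodimer to G proteins and brings it to the surface, had 0 counts in HD-homo and 1 in control.

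Gabre, the GABA-A epsilon subunit gene, was lower in HD-homo from a low level. It had 5 and 4 counts in the HD-homo libraries (0.389 and 0.292 CPM), against 33 and 20 in the control libraries (2.33 and 1.31 CPM). Both HD-homo libraries lay below both control libraries, and the control replicates were themselves 13 counts apart. Its log2 fold change of -2.39 had SE 0.54 (edgeR adjusted p = 0.00528). Leaving out control replicate 1 ended the call (-1.92, adjusted p = 0.0838). By counts alone, HD-homo was lower by a ratio (control divided by HD-homo) of 5.32, with 95% counting bounds of 2.60 and 12.3.

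The other GABA-A subunit genes reported here had no more than a few reads. Alpha subunits are needed, with beta subunits, to form the GABA binding site of these channels. Gabra4 had 1 count in HD-homo and 2 in control, and Gabra2, Gabra3, Gabra5 and Gabra6 were at 0 in all libraries. Gabrb1 had 0 counts in HD-homo and 2 in control, while Gabrb2 had 2 in HD-homo and 0 in control. Gabrg3 had 1 count in HD-homo and 1 in control, and Gabrg1, Gabrd, Gabrp and Gabrq were at 0. Of the rho subunit genes, Gabrr1 and Gabrr2 had 1 count each in HD-homo and Gabrr3 had 0. Gabra4 and Gabrb1 share 46 exon bases on opposite strands, so their few reads are uncertain.

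Many GABA-A genes sit in tandem groups with less than 1 Mb between neighbours. The X chromosome group, from 72255999 to 72842602, holds Gabre, Gabra3 and Gabrq, and all its 62 counts were of Gabre. The chromosome 5 group (Gabrg1, Gabra2, Gabra4, Gabrb1) had 5 counts and the chromosome 4 pair (Gabrr2, Gabrr1) had 2.

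Grin2d, which encodes the NMDA receptor subunit GluN2D, was the receptor subunit with enough counts that was not called. It was at 4.196 and 4.38 CPM in the HD-homo libraries (54 and 60 counts), against 3.11 and 4.59 CPM in the control libraries (44 and 70 counts). Both HD-homo values lay between the control values. The log2 fold change was 0.15 with SE 0.32 (edgeR adjusted p = 0.812), and it was -0.10 without control replicate 1 and 0.46 without control replicate 2. Of its exon bases 9.66% are shared with the antisense gene Gm45441 (24 and 27 counts in HD-homo, 10 and 9 in control), and the strand setting of the counting is not given in the sources used here.

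GluN1, the obligatory NMDA receptor subunit, is encoded by Grin1, which had 0 and 3 counts in HD-homo, against 4 and 2 in control. The groups overlapped, and per length of exon Grin1 was at 0.0113 CPM per kb in HD-homo and 0.0213 CPM per kb in control, below Grin2d at 0.644 CPM per kb in HD-homo and 0.578 CPM per kb in control. Grin3a, which encodes the glycine-binding GluN3A, had 5 and 3 counts in HD-homo and 0 and 0 in control. Against the floor of 3 counts, and without the counting error of its own 5 and 3 counts, its level in HD-homo was higher by 2.95-fold or more. This was 1.53-fold with control replicate 1 left out and 1.42-fold with control replicate 2 left out. Grin3a was not called without the filter on low counts (adjusted p = 0.0671, edgeR). Grin3b had 1 and 1 counts in HD-homo and 2 and 2 in control, and 32.13% of its exon bases are shared with Tmem259 on the other strand. Grin2a and Grin2c had 2 counts each and Grin2b 1, all in HD-homo replicate 2.

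**Figure D3:**
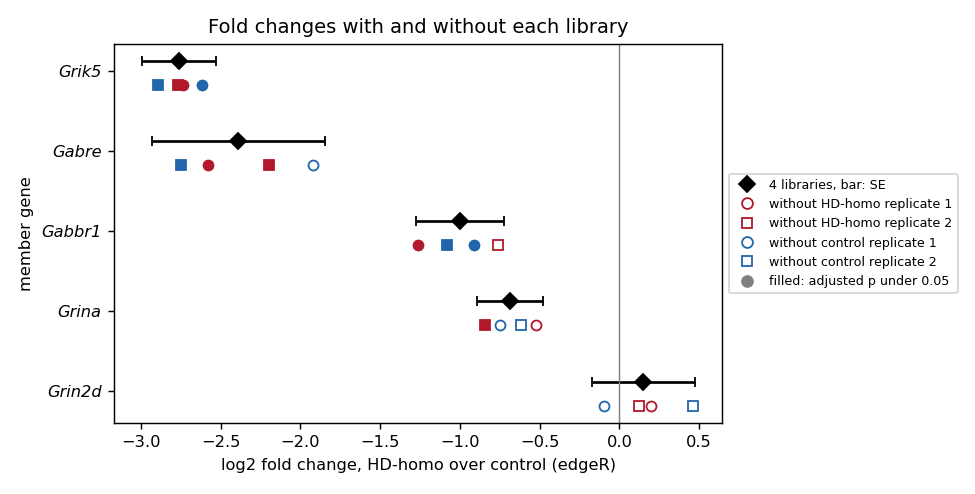
Log2 fold changes of HD-homo over control for the 5 tested members (diamonds, with bars of 1 standard error) and the values without each library (circles and squares, filled where the adjusted p is under 0.05). Grik5 stays between -2.90 and -2.62, and Grin2d crosses 0 without control replicate 1.

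AMPA receptor subunits, which carry fast excitation, were at the edge of detection. Gria3 (GluA3) had 0 and 0 counts in HD-homo, against 8 and 8 in control. Against the floor of 3 counts over the group it was at least 4.82-fold lower in HD-homo. With HD-homo replicate 1 left out the bound was 2.49-fold, and with HD-homo replicate 2 left out 2.33-fold. Its call without the filter on low counts (adjusted p = 0.00285, edgeR) was not made by DESeq2 (adjusted p = 0.0644). Gria1 had 0 and 3 counts in HD-homo and 0 and 2 in control. Gria2, whose edited subunit GluA2 limits calcium entry in most neurons, was at 0 in all libraries, and Gria4 had 1 count, in control. The metabotropic receptors Grm3, Grm5, Grm6, Grm7 and Grm8 and the delta receptor Grid1 were at 0. Grm2 had 1 count, in control, and Grm4 had 1, in HD-homo.

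Grina was by far the most abundant member. It was at 208.9 and 258.1 CPM in the HD-homo libraries, against 357.2 and 393.8 CPM in the control libraries. The groups did not overlap, and the level was 1.61-fold lower in HD-homo (log2 fold change -0.69, SE 0.21, edgeR adjusted p = 0.0318). The call was not kept when control replicate 1 (adjusted p = 0.0902) or control replicate 2 (0.200) was left out, nor when HD-homo replicate 1 was (0.154). Of 6 other genes of its TMBIM family, 5 were tested and 0 were called by edgeR, DESeq2 or limma-voom, with 0 at an unadjusted p under 0.05. Tmbim6, the family member known as BAX inhibitor-1, was at 925 and 990 CPM in HD-homo, against 950 and 837 CPM in control. Tmbim1 had a log2 fold change of -0.42, Ghitm of 0.38 and Faim2 of -0.72, with adjusted p of 0.210, 0.233 and 0.357.

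The tested members were shorter genes, by median, than the others, although their ranges overlap. They span 3.14 to 62.5 kb with a median of 29.1 kb, and the 43 others had a median of 209.3 kb. Among all protein-coding genes the medians were 24.6 kb for those tested and 10.3 kb for those not tested. Gria3 and Grik2, with 10 counts or more but not tested, were among the long genes.

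**Figure D4:**
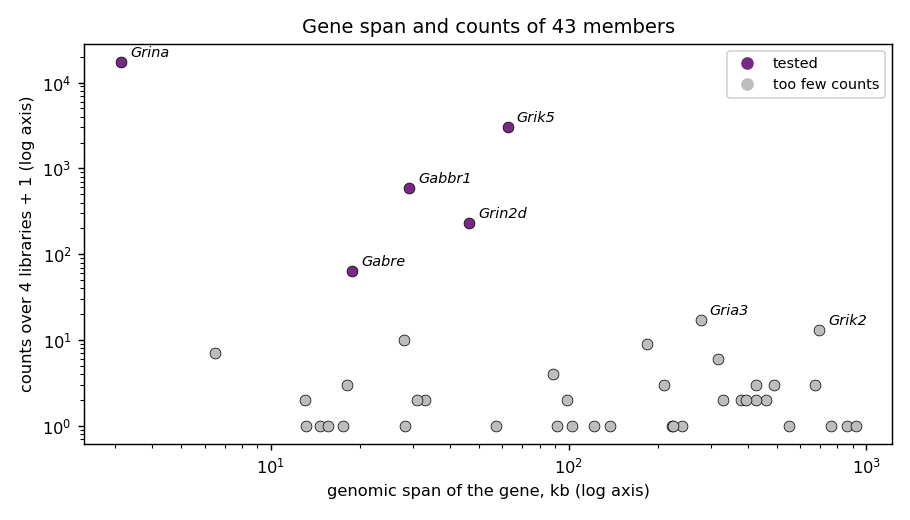
Genomic span (kb, log axis) against counts over the 4 libraries plus 1 (log axis) for 43 members, with tested genes in purple and the others in grey. The purple points lie between 3.14 and 62.5 kb, and the grey points reach 921.6 kb.

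Partners of these receptors were counted next, from lists of auxiliary, scaffold and metabolic genes. Of 24 proteins found with AMPA receptors, 11 were tested, of which 3 were higher and 5 lower in HD-homo (median log2 fold change of the tested -0.56), beside 10.4% and 10.9% of all tested genes. Shisa8 and Nptx2 passed the filter on low counts only through HD-homo, where they are high, and with 10 counts required in every library 0 of 8 genes were higher and 4 lower. Porcn, an acyltransferase that also occurs in AMPA receptor complexes, was at 4.196 and 3.58 CPM in HD-homo, against 17.6 and 19.9 CPM in control (log2 fold change -2.27, standard error 0.27). Olfm1, a secreted glycoprotein, was at 3.42 and 3.43 CPM in HD-homo, against 20.1 and 9.77 CPM in control (log2 fold change -2.12, or -1.51 without control replicate 1). Both genes were lower without overlap of the groups. Shisa8, an AMPA receptor auxiliary gene, had 102 counts in HD-homo and 2 in control, a ratio of 56.4 (95% counting interval 15.2 to 472.1). With control replicate 1 left out the bound was at least 19.5-fold, and with control replicate 2 left out the ratio was 27.2 (7.33 to 227). The neuronal pentraxin gene Nptx2 had 44 counts in HD-homo and 1 in control, a ratio of 48.7 (8.29 to 1966). That count was in control replicate 1: leaving this library out gave a bound of at least 8.41-fold, and leaving out control replicate 2 gave a ratio of 23.4 (3.99 to 946). Cacng2 and Cacng3, which encode classical AMPA receptor TARP subunits, were at 0 in all libraries.

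Cbln1, a secreted protein that bridges presynaptic neurexin and delta receptors, had the highest lower bound of the partner genes named here. It had 0 and 0 counts in HD-homo, against 18.5 and 20.9 CPM in control (580 counts), and was at least 174.8-fold lower in HD-homo (90.2-fold with HD-homo replicate 1 left out and 84.6-fold with HD-homo replicate 2 left out). The delta receptor gene Grid1 was at 0 in both lines. The list of 7 kainate and delta receptor partners had 3 tested genes, with 1 higher and 1 lower, beside 10.4% and 10.9% of all tested genes. With 10 counts required in every library, which removes Cbln1, 1 of 2 was higher and 0 lower. Neto2, an auxiliary subunit of kainate receptors, was at 14.998 and 7.95 CPM in HD-homo, against 21.6 and 16.5 CPM in control, and was not called (log2 fold change -0.73, standard error 0.31, adjusted p = 0.124). Leaving out control replicate 2 or HD-homo replicate 1 gave Neto2 a call as lower, with adjusted p of 0.0336 and 0.00656 in that order. The higher gene was Kctd9, whose tie to these receptors is uncertain (log2 fold change 0.84), and its call was lost without the same 2 libraries (adjusted p = 0.0781 and 0.170).

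Of 24 glutamatergic postsynaptic scaffold genes, 16 were tested, of which 1 was higher and 6 lower, beside 10.4% and 10.9% of all tested genes. Homer2 and Camk2b passed the filter only through the line where they are high, and with 10 counts required in every library 0 of 14 were higher and 4 lower. Shank2, a scaffold of the postsynaptic density, was at 1.09 and 1.24 CPM in HD-homo, against 5.86 and 5.77 CPM in control (log2 fold change -2.31, standard error 0.35). Camk2b, a calmodulin-dependent kinase gene, was at 0.233 and 0.584 CPM in HD-homo, against 4.80 and 2.76 CPM in control (log2 fold change -3.16, standard error 0.51, and -3.96 without HD-homo replicate 2). Homer2, which tethers group I metabotropic receptors, had 64 counts in HD-homo and 0 in control, which bounds its rise at 23.6-fold or more (12.2-fold with control replicate 1 left out and 11.4-fold with control replicate 2 left out). Most tested scaffold genes (9 of 16) were not called, and without control replicate 1, 2 were higher. Of 16 genes of group I metabotropic signalling, 14 were tested, with 1 higher (Homer2) and 1 lower (Plcb4), beside 10.4% and 10.9% of all tested genes. Homer2 and Plcb4 passed the filter only through the line where they are high, and with 10 counts required in every library 0 of 12 genes were called. Plcb4, a phospholipase C gene, had 7 counts in HD-homo and 109 in control (log2 fold change -3.77, standard error 0.48). Homer1 (log2 fold change 0.65, adjusted p = 0.0834) and the protein kinase C gene Prkca (log2 fold change 0.64, adjusted p = 0.0925) were not called. Without control replicate 2, 2 of this list were higher, and without HD-homo replicate 2, 2 were lower.

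Of 18 genes of GABA-A receptor clustering and trafficking, 14 were tested, of which 1 was higher and 3 lower, beside 10.4% and 10.9% of all tested genes. With 10 counts required in every library, which removes Lhfpl4, 1 of 13 was higher and 1 lower. Lhfpl4, an auxiliary protein that holds GABA-A receptors at inhibitory synapses, was at 1.40 and 0.438 CPM in HD-homo, against 26.6 and 15.9 CPM in control (log2 fold change -4.54, standard error 0.44). Leaving out HD-homo replicate 1 moved the log2 fold change to -5.56, and leaving out HD-homo replicate 2 moved it to -3.92. Hap1, the huntingtin-associated protein that takes part in receptor recycling, was at 4.196 and 3.65 CPM in HD-homo, against 10.7 and 11.2 CPM in control (log2 fold change -1.48, standard error 0.28). Both were lower in each HD-homo library than in either control library. Gabarapl1 was higher (log2 fold change 0.82), but its adjusted p was 0.0756 with control replicate 1 left out, 0.0532 with control replicate 2 left out and 0.0747 with HD-homo replicate 2 left out. Clptm1, an ER protein that retains unassembled GABA-A subunits, was lower (log2 fold change -0.64), but its adjusted p was 0.0995 with control replicate 1 left out, 0.270 with control replicate 2 left out and 0.237 with HD-homo replicate 1 left out.

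Of 13 GABA-B receptor partners, 6 were tested, with 2 higher and 2 lower, beside 10.4% and 10.9% of all tested genes. The list had 1 higher and 1 lower without control replicate 1, HD-homo replicate 1 or HD-homo replicate 2. The G protein alpha subunit gene Gnao1 was at 15.6 and 16.6 CPM in HD-homo, against 3.82 and 4.92 CPM in control (log2 fold change 1.88, standard error 0.27). Pianp, which binds the GABA-B1 subunit, was at 1.40 and 0.949 CPM in HD-homo, against 4.88 and 4.002 CPM in control. Gnao1 was higher and Pianp lower without overlap of the groups. The other calls were Kctd12, an auxiliary subunit of GABA-B receptors (log2 fold change 1.27), and the inhibitory G protein gene Gnai1 (log2 fold change -1.14). DESeq2 made neither call (adjusted p = 0.264 for Kctd12 and 0.181 for Gnai1), nor did limma-voom (0.0537 and 0.0547 in that order). In edgeR, Kctd12 missed the threshold with any library left out, and Gnai1 with any but control replicate 2 left out. The channel genes Kcnj3, Kcnj6 and Kcnj9, whose products GABA-B receptors open in neurons, were at 0.

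Of 15 glutamate transport and metabolism genes, 12 were tested, with 4 higher and 2 lower, beside 10.4% and 10.9% of all tested genes. Slc1a6 and Slc1a1 passed the filter only through HD-homo, and with 10 counts required in every library 1 of 8 genes was higher and 2 lower. The glutamine transporter gene Slc38a1 was at 16.2 and 19.0 CPM in HD-homo, against 156.2 and 227.5 CPM in control (log2 fold change -3.44, standard error 0.25). Glul, glutamine synthetase, was at 115.6 and 131.8 CPM in HD-homo, against 29.7 and 31.9 CPM in control (log2 fold change 2.01, standard error 0.21). The glutamate transporter gene Slc1a6 had 41 counts in HD-homo and 0 in control, a rise of 15.1-fold or more (7.84-fold with control replicate 1 left out and 7.28-fold with control replicate 2 left out). Slc1a1, another glutamate transporter gene, had 45 counts in HD-homo and 2 in control, a ratio of 24.9 (95% counting interval 6.50 to 211.8), of 12.9 (3.37 to 109.8) with control replicate 1 left out, and a bound of at least 7.99-fold with control replicate 2 left out.

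Of 9 genes of GABA synthesis, transport and breakdown, 1 was tested. Aldh5a1, a mitochondrial enzyme of GABA breakdown, was lower (log2 fold change -0.95, standard error 0.28, adjusted p = 0.0267), but DESeq2 did not call it (adjusted p = 0.0752), nor did edgeR with control replicate 2 (0.142), HD-homo replicate 1 (0.0883) or HD-homo replicate 2 (0.0761) left out. The vesicular GABA transporter gene Slc32a1 and the plasma membrane transporter genes Slc6a11 and Slc6a13 were at 0. Of 7 chloride cotransporter genes, which set the driving force of GABA-A currents, 4 were tested and 0 called by edgeR, DESeq2 or limma-voom, with 0 higher and 1 lower at an unadjusted p under 0.05. Slc12a2, the chloride importer NKCC1, was at 15.6 and 18.8 CPM in HD-homo, against 22.0 and 37.3 CPM in control, and was called lower without control replicate 1 (adjusted p = 0.00358) and without the filter on low counts (adjusted p = 0.0257). The potassium chloride cotransporter genes Slc12a4 and Slc12a7 had log2 fold changes of -0.47 and -0.096. Of 5 glycine receptor genes, Glrb was tested and lower (3.96 and 2.63 CPM in HD-homo, against 10.5 and 6.76 CPM in control), but not without control replicate 1 (adjusted p = 0.0580), and the alpha subunit genes Glra1, Glra2, Glra3 and Glra4 were at 0.

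**Figure D5:**
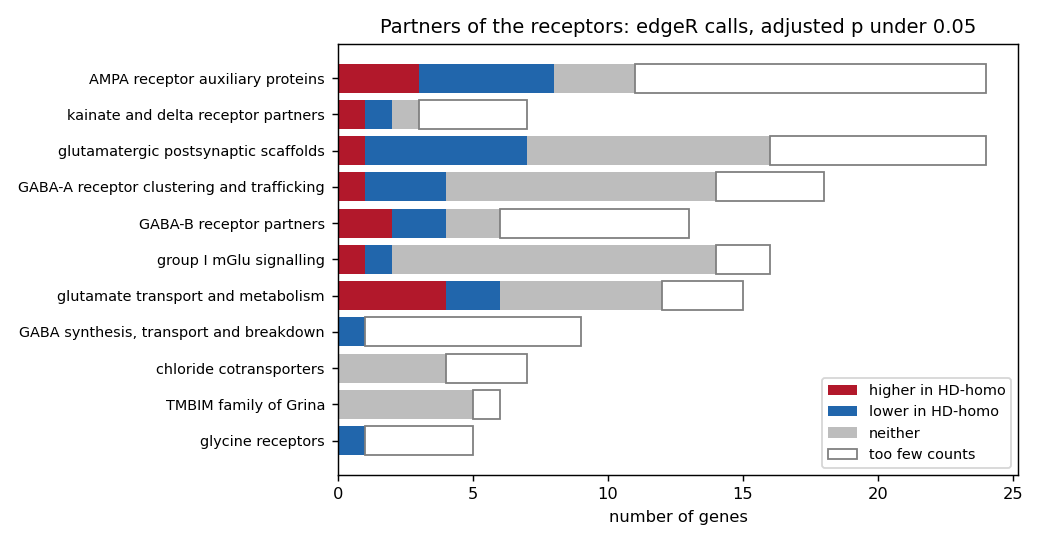
Number of genes (horizontal axis) in each of 11 partner lists that were higher (red) or lower (blue) in HD-homo, not called (grey) or had too few counts to be tested (white), by edgeR at an adjusted p under 0.05. Calls went both ways in several lists, with 3 higher and 5 lower among AMPA receptor auxiliary genes and 4 higher and 2 lower among glutamate transport genes. Over all tested genes 10.4% were higher and 10.9% lower.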

How the data were processed

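The authors trimmed reads with cutadapt, and the submitters' processing notes also name Bowtie 1.1.2, RSEM 1.3.0, GRCm38.p5 and DESeq2. The authors deposited whole-number counts per gene and library, and a signal that is these counts divided by 1 size factor per library (0.9293 to 1.0957), which gave back all counts within 0.001 and was used in no test. The strand setting is not given in the sources used here.

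Low genes were removed with filterByExpr. The others were compared between HD-homo and control with the quasi-likelihood F-test of edgeR 4.0.16 (R 4.3.3, TMM scaling). This procedure was also run on simulated counts with the same spread for all genes (dispersion 0.0324) and libraries drawn independently. That run does not cover spreads that differ between genes or links between same-numbered libraries. Standard errors come from the F statistic. Library totals of 12372090 to 15472808 counts limit precision. Replicates of a group differed by more than sampling noise (chi-square per degree of freedom 30.5 in HD-homo and 29.0 in control). Gene positions and exon lengths were taken from GENCODE M21 (GRCm38) by gene ID and promoters from RefSeq. Ratios of sparse genes used counts over TMM-scaled totals, with exact conditional intervals.

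The members and lists were chosen with earlier results of these data known. The rule named all members and, of each list, up to 4 tested genes of lowest p, besides defining genes at 0. Some members and list genes are not reported here by name or drawn, but enter the counts and sums. Alternatives covered scaling, filter, DESeq2 1.42.0, limma-voom (limma 3.58.1), the replicate number as a block, thresholds and each library left out.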

Additional observations from a re-analysis of the deposited data

How the results depend on the processing

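Grik5 kept its direction and its call under all alternatives. With all 4 libraries, Gabre, Gabbr1 and Grina kept theirs at an adjusted p under 0.05, except that Gabre could not be tested when each library had to hold at least 10 counts. The number of members lower was 2 at an adjusted p under 0.01 and 2 at a fold change over 2, against 4, and ranged from 2 to 3 with a library left out. Without the filter on low counts 1 member (Grik2) was higher, against 0, and 6 were lower, against 4. Requiring 10 counts or more of each library left 815 genes higher and 883 lower, against 1344 and 1408. The log2 fold change of Grin2d ranged from -0.10 to 0.46 with a library left out and reversed without control replicate 1, and the cause was not tested. With a minimum of 10 counts over the 4 libraries 8 members counted as detected, against 28.

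Replicate 1 minus replicate 2 correlated between the groups over genes (r = 0.39, 12961 genes). The labels do not say whether a number marks a shared day or batch, so whether same-numbered libraries are paired is not known. With the replicate number as a block, 2126 genes were higher and 2350 lower, and 4 members were lower and 0 higher. Of the partner genes given as not called, the block called Neto2 (adjusted p = 0.00159), Slc12a2 (0.000681), Slc12a4 (0.0150) and Tmbim1 (0.0339) lower, and Homer1 (0.0111) and Prkca (0.000826) higher. In all, 43 of 48 members had too few counts to be tested.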
